A study of Mus musculus with 6 samples.

Results

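The CA1 pyramidal identity genes are 8 genes that were chosen by symbol as markers of the pyramidal neurons of hippocampal field CA1, namely Spink8, Fibcd1, Neurod6, Pou3f1, Wfs1, Mpped1, Man1a and Ccn3. All 8 were found by their Ensembl identifiers among the 54752 genes of the count tables, and all 8 were among the 18617 genes that passed the filter on low counts. The RNA came from the complete right hippocampus of wild-type male C57BL/6 mice aged 14 weeks, 3 weeks after surgery. The 3 BCAS mice had bilateral carotid artery stenosis, with a narrower microcoil on the right common carotid artery than on the left, and the 3 Sham mice had the same operation but no microcoil. Each mouse gave 1 library, and mice are numbered 1 to 3 within a group by their labels, which name no pairing between the groups. BCAS is a model of chronic cerebral hypoperfusion, and the comparison asks what reduced blood flow over weeks did to transcripts of the hippocampus.

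CA1 is the output field of the hippocampal circuit. Its pyramidal neurons receive the Schaffer collaterals of CA3, send axons to the subiculum and cortex, and are known for their sensitivity to ischemia. Their identity is described by combinations of genes that are low or absent in the granule cells of the dentate gyrus and in CA3, since hardly any gene is confined to CA1. Among the 8 genes are a pair of transcription factors (Neurod6 and Pou3f1), secreted proteins (Spink8 and Ccn3), membrane proteins of the cell surface, the endoplasmic reticulum and the Golgi apparatus (Fibcd1, Wfs1 and Man1a), and a predicted phosphoesterase (Mpped1). Several of them, such as Neurod6, Wfs1 and Mpped1, are also transcribed in neurons of the cerebral cortex. Because RNA was taken from whole tissue, the cell that carried a transcript was not measured, and fewer CA1 neurons cannot be told apart from less of a transcript per neuron.

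The libraries held 29652456 to 35607098 counts, so that a limit of 3 counts equals 0.0875 to 0.0995 CPM (counts scaled to a common library size), and every member was far above it in every mouse. Such limits cover counting error only. Markers of some other cells moved with the groups. All 8 microglial markers were higher in BCAS mice, with a summed level of 255 to 264 CPM in Sham mice and 1567 to 2470.2 CPM in BCAS mice, and 5 of 6 astrocyte markers and 3 of 4 endothelial markers were higher. The log2 fold changes of the microglial markers were 1.54 for P2ry12, 2.02 for Tmem119, 2.58 for Csf1r, 2.73 for Cx3cr1, 3.01 for Itgam, 3.14 for Aif1, 3.95 for C1qa and 4.33 for Trem2, and among astrocyte markers they exceeded 1 for Gfap (3.29) and Aqp4 (1.67). None of 6 oligodendrocyte markers passed, with a median log2 fold change of 0.13. Choroid plexus transcripts differed between mice of both groups, from 70.8 to 4082 CPM in Sham mice and from 40.4 to 5924 CPM in BCAS mice, and BCAS mouse 2 had the lowest sum. None of the listed markers was at 0 in all libraries. Their part in the results was not tested.

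Of the 8 members, 6 fell after BCAS at an adjusted P under 0.05 (edgeR quasi-likelihood test, Benjamini-Hochberg over all genes tested), 2 did not pass and none rose. In all, 13.2% of the genes tested were lower and 18% were higher at this threshold. Spink8, Fibcd1, Neurod6 and Pou3f1 also passed the log2 fold change threshold of -1 and were down-regulated DEGs (differentially expressed genes), against 0.999% of all genes. Mpped1 and Man1a fell by less, and Wfs1 and Ccn3 did not pass. The median log2 fold change of the members was -0.95, and that of all genes tested was 0.018. Every BCAS mouse lay below every Sham mouse in 6 members, a pattern seen for 22.7% of the genes tested.

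**Figure D1:**
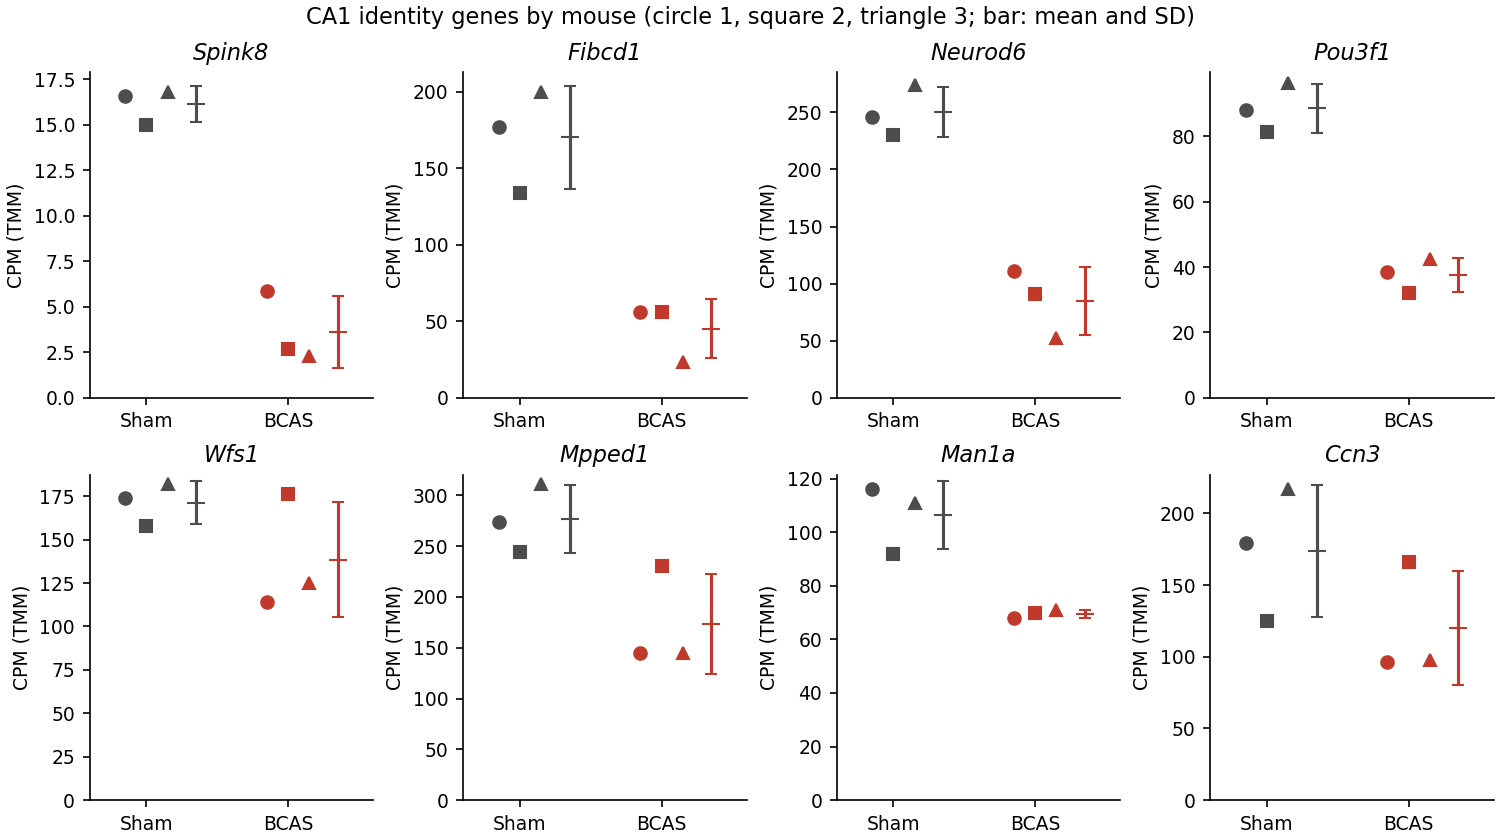
Level of each CA1 identity gene in CPM, scaled by TMM, in 3 Sham mice (grey) and 3 BCAS mice (red), where circles, squares and triangles are mice 1, 2 and 3 and the bar beside them is the mean with its SD. The groups are apart for Spink8, Fibcd1, Neurod6, Pou3f1, Mpped1 and Man1a, while BCAS mouse 2 (square) lies among the Sham mice for Wfs1 and Ccn3.

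The transcription factors were both DEGs. Neurod6 (ENSMUSG00000037984.9) encodes a basic helix-loop-helix factor of postmitotic glutamatergic neurons and lies on the minus strand at chr6:55677822-55681263 of mm10. Its level was 246, 230.3 and 274 CPM in Sham mice 1 to 3 and 111, 91.3 and 52.4 CPM in BCAS mice 1 to 3. These were 44.6%, 36.5% and 21.0% of the Sham mean, so that all BCAS mice lay far below all Sham mice and BCAS mouse 3 was the lowest. The log2 fold change was -1.56 (standard error 0.23, edgeR adjusted P = 0.00137), the rank 60 from the lowest among all genes tested. Pou3f1 (ENSMUSG00000090125.3), also called Oct6, encodes a POU domain factor and is a single exon on the plus strand at chr4:124656807-124660655. It had 88.0, 81.2 and 96.3 CPM in Sham mice and 38.4, 32.1 and 42.3 CPM in BCAS mice. The fall to 42.5% of the Sham mean was the most even of the 4 DEGs, with a coefficient of variation of 13.7% among BCAS mice, and here BCAS mouse 3 was the highest of its group. The log2 fold change was -1.24 (standard error 0.11, edgeR adjusted P = 1e-04). Gm2164 on the opposite strand overlaps 330 bases (8.57%) of the Pou3f1 exon, and reads on that stretch were assigned to neither gene.

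Spink8 and Fibcd1 showed the lowest fold changes of the list. Spink8 (ENSMUSG00000050074.12), which encodes a Kazal-type serine protease inhibitor, lies on the plus strand at chr9:109812280-109826633. Its counts were 563, 500 and 575 in Sham mice and 191, 81 and 72 in BCAS mice. In CPM these were 16.6, 15 and 16.8 against 5.88, 2.69 and 2.31, so the Sham mice were close together and the BCAS mice were spread over a wide range far below them. The mean of BCAS mice was 4.45-fold lower (log2 fold change -2.15, standard error 0.31, edgeR adjusted P = 0.00121), the rank 17 from the lowest of all genes tested. Fibcd1 (ENSMUSG00000026841.7) encodes a cell-surface receptor with a fibrinogen-like domain that binds acetylated compounds such as chitin, and lies on the minus strand at chr2:31813290-31846005. It had 177, 134 and 200 CPM in Sham mice and 56.3, 56.3 and 23.3 CPM in BCAS mice. BCAS mice 1 and 2 were at the same level and BCAS mouse 3 was well below it. The mean was 3.76-fold lower (log2 fold change -1.91, standard error 0.30, edgeR adjusted P = 0.002). With glmTreat in edgeR, which asks for a change larger than 1 on the log2 scale, Spink8 and Fibcd1 passed, as did 0.0752% of all genes tested in this direction, and Neurod6 (adjusted P = 0.0919) and Pou3f1 (adjusted P = 0.154) did not.

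Of the 8 members, 5 matched the promoter table, and among the DEGs these were Neurod6 and Fibcd1. Their promoters are shown to compare the base composition of a pair of genes that both fell, each as the 250 bases before the start of the gene, 5′ to 3′ on the strand of the gene, in RefSeq's GRCm38.p6. Capitals mark CG dinucleotides. The windows are chr6:55681264-55681513 (minus strand) for Neurod6 and chr2:31846006-31846255 (minus strand) for Fibcd1, and neither overlaps an annotated exon.
Neurod6: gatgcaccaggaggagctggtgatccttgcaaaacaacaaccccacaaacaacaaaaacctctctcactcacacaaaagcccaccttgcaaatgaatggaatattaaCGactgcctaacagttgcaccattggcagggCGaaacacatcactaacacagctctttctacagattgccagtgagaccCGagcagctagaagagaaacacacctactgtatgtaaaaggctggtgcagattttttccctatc
Fibcd1: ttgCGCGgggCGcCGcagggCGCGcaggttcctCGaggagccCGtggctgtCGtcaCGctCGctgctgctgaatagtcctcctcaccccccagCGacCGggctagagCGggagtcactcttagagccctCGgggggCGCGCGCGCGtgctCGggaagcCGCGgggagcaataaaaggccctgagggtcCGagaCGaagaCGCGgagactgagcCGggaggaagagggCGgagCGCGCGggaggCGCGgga
The pair differed in composition. The Neurod6 window held 3 CG dinucleotides at 46% G and C, and the Fibcd1 window held 34 at 71.6%. As many CG or more were present in 3.53% of the 32851 RefSeq promoter windows for Fibcd1, and as many or fewer in 37.8% for Neurod6, with a median of 6. On neither strand does either window hold CAGATG, the letters of a NeuroD-type E-box, which 14.4% of all windows hold. The same is true of the POU octamer, spelled ATGCAAAT and present in 1.6% of all windows, and of the TATA box, spelled TATAAA and present in 12.4%. Among the windows of the other matched members, that of Wfs1, which overlaps an annotated exon, held CAGATG at 1 place.

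Mpped1 and Man1a fell to 62.8% and 65.4% of the Sham mean. Mpped1 (ENSMUSG00000041708.12), which encodes a metallophosphoesterase domain protein of brain, lies on the plus strand at chr15:83779467-83858494. It had 274, 244 and 311 CPM in Sham mice and 145, 230.2 and 145 CPM in BCAS mice. The groups did not overlap, but BCAS mouse 2 was at 83.3% of the Sham mean and the other two at 52.6% and 52.4%. The log2 fold change was -0.67 (standard error 0.18, edgeR adjusted P = 0.0216). The call was lost without Sham mouse 1 (adjusted P = 0.0671), Sham mouse 3 (0.0881), BCAS mouse 1 (0.062) or BCAS mouse 3 (0.0647). Man1a (ENSMUSG00000003746.16), a Golgi alpha-mannosidase that trims N-linked glycans in many cell types, lies on the minus strand at chr10:53904785-54076609. It had 116, 92.0 and 111 CPM in Sham mice and 68.0, 69.7 and 70.9 CPM in BCAS mice. Its BCAS values were the closest of the list, with a coefficient of variation of 2.16%, and the log2 fold change was -0.61 (standard error 0.09, edgeR adjusted P = 0.00159). Gm16998 on the opposite strand overlaps 147 (1.52%) of the exonic bases of Man1a.

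Wfs1 and Ccn3 did not pass. Wfs1 (ENSMUSG00000039474.13) encodes wolframin, a membrane protein of the endoplasmic reticulum that is mutated in Wolfram syndrome and is a widely used marker of CA1, and lies on the minus strand at chr5:36966104-36989205. It had 174, 158 and 182 CPM in Sham mice and 114, 176 and 125 CPM in BCAS mice (log2 fold change -0.30, standard error 0.15, edgeR adjusted P = 0.159). BCAS mice 1 and 3 were below all Sham mice, and BCAS mouse 2 was between Sham mice 1 and 3. Ccn3 (ENSMUSG00000037362.8), formerly Nov, encodes a secreted matricellular protein and lies on the plus strand at chr15:54745702-54754039. It had 179.6, 125 and 217 CPM in Sham mice and 96.2, 166 and 97.8 CPM in BCAS mice (log2 fold change -0.53, standard error 0.24, edgeR adjusted P = 0.131). Again BCAS mouse 2 was inside the Sham range and the other two were below it. Without BCAS mouse 2, Wfs1 had a log2 fold change of -0.52 (edgeR adjusted P = 0.00292) and Ccn3 one of -0.85 (edgeR adjusted P = 0.01), so that 8 of 8 members were lower, where 16.1% of all genes were. With any other mouse left out neither passed (adjusted P = 0.178 to 0.399 for Wfs1 and 0.0583 to 0.393 for Ccn3), and 5 or 6 members were lower.

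**Figure D2:**
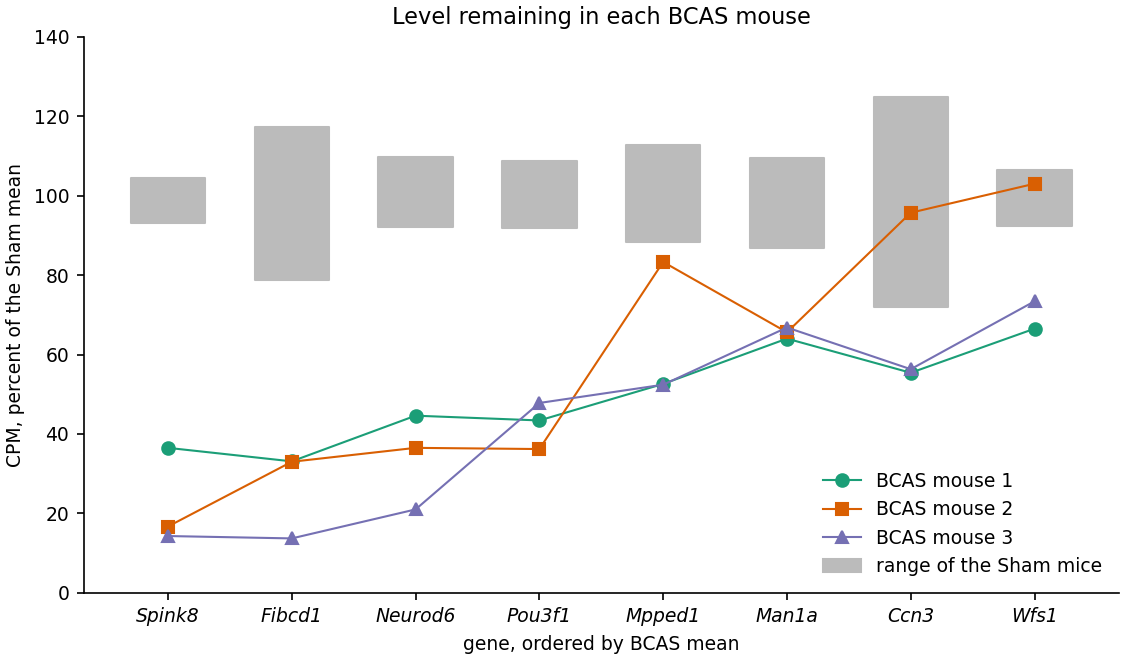
Level of each member in each BCAS mouse as a percent of the Sham mean, with genes ordered by the BCAS mean on the x axis, lines joining the values of one mouse and grey boxes for the range of the 3 Sham mice. BCAS mouse 2 runs with the other mice from Spink8 to Pou3f1 and at Man1a, and rises to 83.3%, 95.7% and 103% of the Sham mean at Mpped1, Ccn3 and Wfs1.

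BCAS mice ranked differently from gene to gene. The medians over the 8 members were near each other, at 48.6%, 51% and 50.1% of the Sham mean in BCAS mice 1, 2 and 3. The range was narrow in BCAS mouse 1 (33.1% to 66.5%) and wide in BCAS mouse 2 (16.7% to 103%) and BCAS mouse 3 (13.7% to 73.4%). BCAS mouse 3 was the lowest of the group for 4 members (Spink8, Fibcd1, Neurod6 and Mpped1) and BCAS mouse 2 for Pou3f1. Ratios of a pair of members within a library do not depend on how libraries are scaled. The log2 ratio of Fibcd1 to Wfs1 counts was 0.03, -0.23 and 0.14 in Sham mice, and -1.01, -1.65 and -2.43 in BCAS mice. The read counts of the 2 genes were close in Sham mice, and in every BCAS mouse those of Fibcd1 were far lower. Fibcd1 is the longer gene, and equal counts are not equal numbers of transcripts. For Neurod6 to Ccn3 the log2 ratio was 0.45, 0.88 and 0.34 in Sham mice and 0.21, -0.86 and -0.90 in BCAS mice, which also did not overlap. In contrast, the log2 ratio of Mpped1 to Ccn3 was 0.61, 0.97 and 0.52 in Sham mice and 0.60, 0.47 and 0.57 in BCAS mice, with overlap. Of the 28 pairs of members, 19 (67.9%) had ratios that did not overlap between the groups, against 44.8% of all pairs among 18404 tested genes with a count in every library. The pairs share genes and libraries, the 3 pairs given were chosen after their values were seen, and an exact permutation test of 3 mice against 3 cannot give a two-sided P under 0.1.

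Within the Sham group, all 8 members were lowest in Sham mouse 2, and 7 of 8 were highest in Sham mouse 3. Summed choroid plexus markers were 989, 4082 and 70.8 CPM in Sham mice 1 to 3, and summed dentate granule markers were 335, 373 and 259 CPM, both highest in Sham mouse 2 and lowest in Sham mouse 3. In BCAS mice 1 to 3 the same sums were 5924, 40.4 and 3216 CPM for choroid plexus and 387, 172 and 272 CPM for dentate granule cells, with BCAS mouse 2 the lowest in both. Of 4 genes of thalamus and cortex, which adjoin the hippocampus, Prkcd, named after its values were seen, was higher (log2 fold change 0.91, edgeR adjusted P = 0.0265) and 3 did not pass. Their summed level was 87.4 to 95.7 CPM in Sham mice and 94.3, 115 and 167 CPM in BCAS mice 1 to 3. BCAS mouse 3, the highest in this sum, was the lowest BCAS mouse for Spink8, Fibcd1, Neurod6 and, with BCAS mouse 1 close to it, Mpped1. BCAS mouse 3 also had the highest microglial sum (2470.2 CPM) and the lowest pan-neuronal sum (4708 CPM). For Pou3f1 and Man1a it was the highest BCAS mouse. Whether the amount of neighbouring tissue in a sample had a part in the values of the members was not tested.

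Levels of different genes were compared per kilobase of exon (FPKM, CPM divided by the exonic length in kilobases, computed here from counts of single reads). In Sham mice Neurod6 was the highest at 116 ± 10.2 FPKM (SD, n = 3), followed by Mpped1 (64.3 ± 7.88), Ccn3 (60.5 ± 16.1), Wfs1 (45.1 ± 3.22), Fibcd1 (35.9 ± 7.0), Pou3f1 (23.0 ± 1.96), Spink8 (19.6 ± 1.22) and Man1a (11.0 ± 1.31). Neighbours from Mpped1 down to Fibcd1 overlapped in their ranges, and the other neighbours did not. In BCAS mice Ccn3 (41.8 ± 13.9 FPKM, SD, n = 3), Mpped1 (40.4 ± 11.4), Neurod6 (39.5 ± 13.9) and Wfs1 (36.6 ± 8.79) were highest and overlapped. Pou3f1 (9.76 ± 1.34), Fibcd1 (9.53 ± 4.01), Man1a (7.21 ± 0.155) and Spink8 (4.41 ± 2.39) made up a lower group of overlapping neighbours. Neurod6 thus lost its place above the other members, and Spink8 went from above Man1a to below its mean.

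Genes of neurons in general were also lower in BCAS mice. Of 12 pan-neuronal genes, such as those for synaptic vesicle and cytoskeletal proteins, 9 fell and none rose, with a median log2 fold change of -0.58, and of 5 genes of glutamatergic neurons 4 fell, with a median of -0.69. When libraries were scaled to the pan-neuronal genes in place of TMM, the median of all genes moved to 0.57 and 0.661% of genes were lower and 50% higher at an adjusted P under 0.05. Under this scaling 4 of 8 members were still lower, the same 4 that were DEGs. Their log2 fold changes were -1.61 for Spink8 (standard error 0.32, edgeR adjusted P = 0.00268), -1.42 for Fibcd1 (0.23, adjusted P = 0.000892), -1.04 for Neurod6 (0.18, adjusted P = 0.00141) and -0.66 for Pou3f1 (0.20, adjusted P = 0.0188). The Pou3f1 call was lost without Sham mouse 1 (adjusted P = 0.0592), Sham mouse 3 (0.0591) or BCAS mouse 1 (0.0514). The remaining members did not pass, with -0.15 for Mpped1 (standard error 0.13), -0.06 for Man1a (0.16), -0.02 for Ccn3 (0.19) and 0.22 for Wfs1 (0.13), whose sign was reversed by the scaling. In each mouse, log2 CPM of Spink8 minus the mean of the pan-neuronal genes was -4.81, -4.97 and -4.92 in Sham mice and -5.81, -7.15 and -6.88 in BCAS mice. For Neurod6 it was -0.93, -1.03 and -0.90 against -1.58, -2.10 and -2.41, again without overlap.

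**Figure D3:**
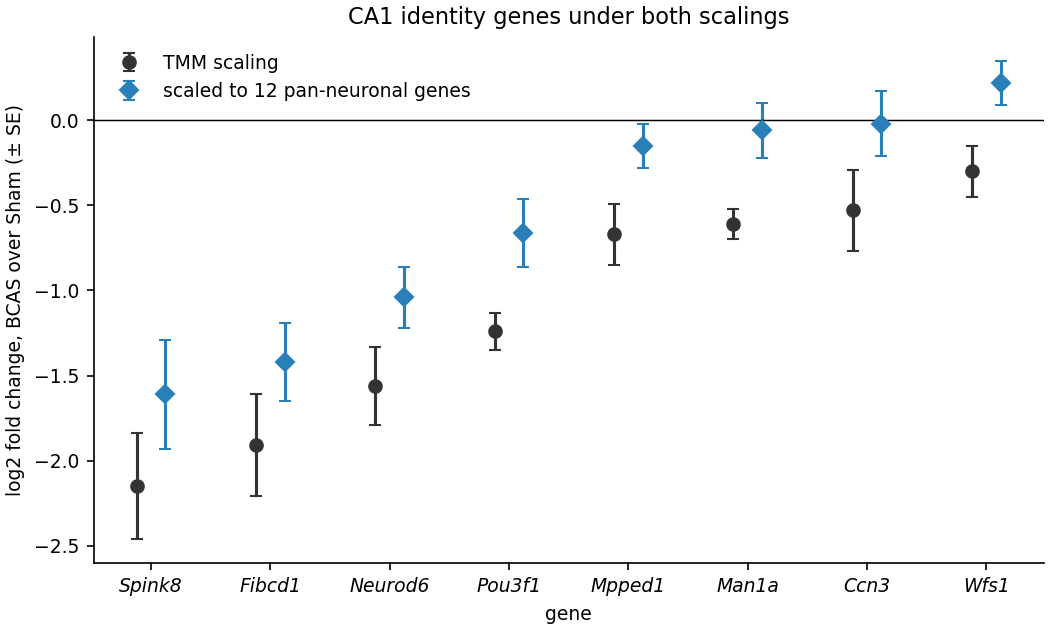
The log2 fold change of each member with its standard error, from edgeR fits with TMM scaling (black circles) and with libraries scaled to 12 pan-neuronal genes (blue diamonds). All members move up with the second scaling, Spink8, Fibcd1, Neurod6 and Pou3f1 stay below 0, and Mpped1, Man1a and Ccn3 come to lie at -0.15, -0.06 and -0.02.

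Other genes known to be transcribed in CA1, though in other cells too, gave 5 of 8 lower and none higher, with a median log2 fold change of -0.66. Ndst4, an enzyme that modifies heparan sulfate, was the DEG among them, with 51.0, 39.7 and 44.8 CPM in Sham mice and 19.7, 14.0 and 16.0 CPM in BCAS mice (log2 fold change -1.44, standard error 0.15, edgeR adjusted P = 1.64e-04). It also stayed lower with the pan-neuronal scaling (-0.89, adjusted P = 0.0074).

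The CA2 and CA3 list had 5 of 8 genes lower, none higher and a median of -0.68, with the DEGs Rgs14 (log2 fold change -1.24), a regulator of G protein signaling known from CA2, and Iyd (-1.77), an iodotyrosine deiodinase that marks CA3. Both also passed with the pan-neuronal scaling (edgeR adjusted P = 0.00724 and 0.0077). Of 8 dentate granule genes 3 fell, all as DEGs, namely the desmosome gene Dsp (-1.31), Tdo2 (-1.50), which encodes tryptophan dioxygenase, and the lactase gene Lct (-1.16), and the median was -0.10. Of 9 interneuron genes 6 fell, with a median of -0.46 and Sst (-1.10), which encodes somatostatin, as the DEG. With the pan-neuronal scaling the counts of lower genes were 4 of 8 for the CA1 identity genes, 2 of 8 for the other genes of CA1, 2 of 8 for CA2 and CA3, 1 of 8 for dentate granule cells and 1 of 9 for interneurons. These counts describe the lists, and differences between lists were not tested.

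**Figure D4:**
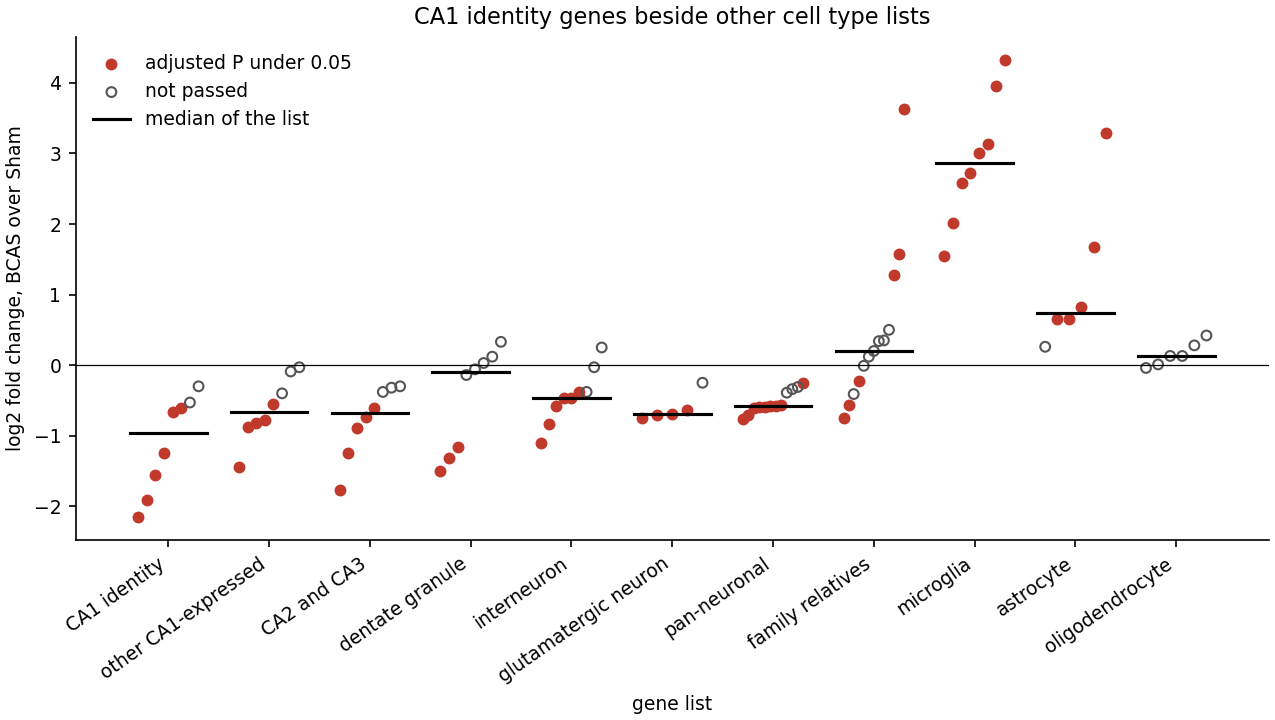
The log2 fold change (BCAS over Sham, edgeR with TMM) of every tested gene in the CA1 identity list and in 10 of the comparison lists, with filled points for an adjusted P under 0.05, open points for genes that did not pass and a line at the median of each list. The CA1 identity genes have a median of -0.95 and spread from -2.15 to -0.30, pan-neuronal genes lie between -0.77 and -0.25, and microglial genes between 1.54 and 4.33.

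Relatives of the members in the same gene families did not share one direction. Of 14 such genes 13 were tested, 3 fell, 3 rose and 7 did not pass, with a median log2 fold change of 0.20. With the pan-neuronal scaling none was lower, 7 were higher and the median was 0.71. Of all genes tested, 0.661% were lower and 50% higher under this scaling, with a median of 0.57. Neurod2, a helix-loop-helix factor of most forebrain glutamatergic neurons, fell with Neurod6 but by less (-0.75, edgeR adjusted P = 0.00512), and Neurod1 (-0.41) and Neurod4 (0.20) did not pass. Pou3f3 fell slightly (-0.23, edgeR adjusted P = 0.0365), with a change of 0.32 under the pan-neuronal scaling, and Pou3f2 (0.34) and Pou3f4 (0.12) did not pass. Of the 4 tested genes of this family, Pou3f1 was the DEG. Mpped2 had a change of -0.57 (edgeR adjusted P = 0.0332), near that of Mpped1. Man1c1, another Golgi mannosidase, rose where Man1a fell, from 32.3, 33.2 and 32.2 CPM in Sham mice to 67.3, 80.8 and 88.7 CPM in BCAS mice (log2 fold change 1.28, edgeR adjusted P = 5.42e-05), and Man1a2 did not pass (-0.01). Ccn1 and Ccn5, matricellular relatives of Ccn3, rose (1.58 and 3.63), with Ccn5 at 0.120 to 0.408 CPM in Sham mice and 1.88 to 4.84 CPM in BCAS mice. Ccn2 (0.50) and Ccn4 (0.35) did not pass, and Ccn6 was removed by the filter on low counts.

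Across the 6 libraries the genes with at least 10 CPM whose log2 CPM ran most like the mean of the 8 standardized members were Rtl8a, Zdhhc2, Cd47, Kpna3 and Camk1g, chosen from 10713 candidates by Pearson's r, which was 0.998 to 0.999. The 6 points form 2 groups, so that such an r mostly reflects the difference between Sham and BCAS mice. Zdhhc2, a palmitoyltransferase, had 84.6, 72.3 and 89.2 CPM in Sham mice and 42.1, 51.4 and 38.6 CPM in BCAS mice. Its low value in Sham mouse 2 and high value in BCAS mouse 2 are those of the members' mean and follow from the choice by r. Among single members, BCAS mouse 2 was the highest of its group for 3 of 8.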

How the data were processed

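RNA of the right hippocampus was sequenced as paired-end reads in 3 Sham and 3 BCAS mice. The authors trimmed the reads with Trim Galore, aligned them to mm10 with HISAT2 and counted them per gene, and the deposited values are raw counts without normalization. The file headers name featureCounts 2.0.3 with GENCODE vM20, whereas the processing notes name version 1.6.3. Per the file headers, each mate of a pair added its own count, counting was unstranded, and reads with several alignments were left out. The headers of the BCAS tables carry other mouse numbers than the labels, and the labels were used. The gene length in the deposited tables was used for FPKM.

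The filterByExpr function of edgeR 4.0.16 (R 4.3.3) removed low genes, TMM set the library scale, and groups were compared by the quasi-likelihood test with no block term, with Benjamini-Hochberg adjustment over 18617 genes. Symbols were matched for 54723 genes. The steps were tested on simulated data. A gene was a DEG if its adjusted P was under 0.05 and its log2 fold change was beyond 1 in either direction. Log2 CPM used a prior count of 2. P values test the difference between groups against a spread estimated from 3 mice per group, with information shared across genes.

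Alternatives were DESeq2 1.42.0, limma-voom (limma 3.58.1), RLE factors, library totals, scaling to pan-neuronal genes, a filter at 1 count or at a mean of 10 counts, glmTreat, a replicate block and leaving out each mouse. Leaving out mice or adding the block under the pan-neuronal scaling was chosen after seeing the data. The members and the 13 comparison lists were chosen with earlier results of these data known. Named are the members, genes of the comparison lists that were DEGs or relatives of a member, and the 5 genes most like the members, with exceptions stated. Behavior, histology, blood flow and qRT-PCR were not analysed here.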

Additional observations from a re-analysis of the deposited data

How the results depend on the processing

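The log2 fold changes of Spink8, Fibcd1, Neurod6, Pou3f1, Mpped1, Man1a and Ccn3 were below 0 under every alternative that changed 1 choice, and that of Wfs1 was 0.22 with the pan-neuronal scaling. With that scaling and a mouse left out as well, Man1a was at 0.04 without Sham mouse 1 and 0.05 without BCAS mouse 2, and Ccn3 was at 0.04, 0.12 and 0.11 when Sham mouse 1, Sham mouse 3 or BCAS mouse 1 was left out. Lower members numbered 6 and DEGs among them 4 with DESeq2, limma-voom, RLE factors, library totals and the filter at a mean of 10 counts. In these settings 9.6% to 15.7% of all genes were lower, and 135 to 197 of all genes were lower DEGs. Without a filter beyond 1 count there were 7 lower members, as Ccn3 passed (adjusted P = 0.0161), against 7.94% of all genes. With glmTreat, which asks for more than a log2 change of 1, 2 members passed, against 0.0752% of all genes. With each mouse left out in turn, 5 to 8 members were lower, against 6.58% to 16.1% of all genes. Of these members 4 were DEGs each time, where 96 to 238 of all genes were lower DEGs. Under the pan-neuronal scaling 3 to 4 members were lower with a mouse left out. The share of all genes was not counted in those fits, and with all mice it was 0.661%. Of 95 tested genes in the comparison lists, 34 were lower and 20 higher. These became 6 and 36 with the pan-neuronal scaling, which holds its own 12 genes near 0 by construction and moved the median of all genes to 0.57. With a mouse left out the counts were 21 to 38 and 19 to 22.

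The replicate number as a block left 6 lower members, against 9.4% of all genes, and 4 DEGs, where 158 of all genes were lower DEGs. In the comparison lists it left 28 lower and 19 higher genes. With the block and the pan-neuronal scaling 4 members were lower. The share of all genes was not counted in that fit, and without the block it was 0.661%. Residuals of mice that share a number correlated at 0.036, -0.314 and -0.158. So few mice cannot show whether the numbers pair them, and the labels do not say. Depth was lowest for Spink8, with 72 to 575 counts per library, while Wfs1 and Ccn3, which did not pass, had 3049 to 7428.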
